A study of Mus musculus with 6 samples.

Results

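The 37 genes described here carry out DNA crosslink repair, homologous recombination and the ATM/ATR checkpoint, and were taken by symbol from a list of such genes. The rule that picks them uses no measured value, but the list was drawn up with earlier results of these data known. All 37 had a row among the 24062 of the table, and all 37 were among the 15742 genes tested. They fall into 5 role groups: 8 genes of the Fanconi core complex, the FANCD2-FANCI pair, 11 genes of the BRCA proteins and strand invasion, 8 of end resection, helicases and nucleases, and 8 of the checkpoint. Messenger RNA was sequenced from c-Kit+ bone marrow, a sorted population rich in blood progenitors. The 3 knockout (KO) libraries came from C57BL/6 mice with floxed Ints11 alleles and Mx1Cre, and the 3 wild-type (WT) libraries from their littermates, with 1 mouse per library. All mice received poly(I:C), a double-stranded RNA that induces interferon and through it the Mx1 promoter that drives Cre, and cells were sorted 4 days later. Mx1-driven Cre is not limited to blood cells. The sources used here do not say whether the WT mice carried Mx1Cre, how old the mice were or which exons were floxed. Ints11 is the endonuclease of Integrator, a complex that cuts nascent transcripts of small nuclear RNA genes and of many other genes.

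An interstrand crosslink ties both strands of DNA together and blocks the replication fork. The Fanconi core complex is a ubiquitin ligase that marks FANCD2 and FANCI at such forks, which opens the way for nucleases to unhook the crosslink. The broken end is then resected by the MRE11-RAD50-NBN complex with CtIP (Rbbp8) and EXO1, and BRCA1, PALB2 and BRCA2 prepare it for strand invasion. ATM responds to broken ends and ATR to exposed single-stranded DNA, and they signal through CHK2 and CHK1. Blood stem cells depend on this pathway, and inherited loss of it causes bone marrow failure in Fanconi anaemia.

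The libraries held between 124074531 and 166860739 counts, with means of 132439000 in KO and 147620000 in WT (exact two-sided permutation test, p = 0.4, where 3 against 3 cannot go below 0.1). A member's count ran from 670 reads for Rad51c in KO_345, a counting error of 3.86%, to 75939 for Topbp1 in WT_343, an error of 0.363%. Levels below are CPM, counts scaled by the TMM-adjusted library total, listed as KO_339, KO_340 and KO_345 against WT_341, WT_343 and WT_344. Log2 changes are KO over WT with the standard error of the fit. Adjusted p-values are from the quasi-likelihood test of edgeR, with the Benjamini-Hochberg method applied over all tested genes, and a gene is called lower or higher where that value is under 0.05. Ints11, listed under its older symbol Cpsf3l, had 64.3, 58.3 and 60.2 CPM in KO, against 73.8, 92.3 and 78.9 CPM in WT. Every KO library lay below every WT library, and the log2 change was -0.42 ± 0.099 (adjusted p = 0.0174). Kit, the marker of the sort, had 228 CPM in KO and 211 CPM in WT (log2 change 0.11, adjusted p = 0.269). Summed transcripts of 17 mature neutrophil markers, none of them at 0, lay between 47428 and 62150 CPM in KO and between 12628 and 39559 CPM in WT, with 5 called higher and 0 lower. The summed level of 12 Kit+ progenitor markers, none at 0, was 9195 to 11118 CPM in KO and 16862 to 22441 CPM in WT: Mpo, Elane, Prtn3, Ctsg and Irf8 fell, and Cd34 and Gata2 rose. Markers of mast cells, basophils and eosinophils summed to 3526 to 4092 CPM in KO and 1410.5 to 1917 CPM in WT (9 of 9 higher). Those of megakaryocytes summed to 99.4 to 149 CPM in KO and 41.2 to 63.5 CPM in WT (5 of 9 higher), and those of stroma and endothelium to 55.5 to 143 CPM in KO and 33.7 to 49.8 CPM in WT (3 of 9 higher), with no marker at 0 in these lists. T and NK cell markers summed to 217 to 233 CPM in KO and 271 to 307 CPM in WT, with 3 of 10 higher and 1 lower. Ranges overlapped for erythroid markers (403 to 493 CPM in KO and 447 to 757 CPM in WT, 1 of 10 lower), B cell markers (53.9 to 92.02 CPM in KO and 26.01 to 94.4 CPM in WT) and macrophage markers (444 to 675 CPM in KO and 317.5 to 549 CPM in WT, 1 of 9 higher), again with no marker at 0. The part of these transcripts in the results below was not tested, though the neutrophil markers served as a covariate in an alternative fit. In bulk libraries, fewer cells of a type and less RNA per cell cannot be told apart.

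Of the 37 genes, 23 fell in KO cells, 0 rose and 14 were not called, so 62.2% fell, against 19.9% of all tested genes (3139 of 15742). Among the 10187 tested genes with a mean of at least 5 CPM, which all 37 members reach, 29.7% fell. This floor does not match the members' levels. Across tested protein-coding genes, Spearman's rho between mean CPM and log2 change was -0.47. The share of tested genes that rose was 16.0%, and it was 10.7% among those of at least 5 CPM, against 0 of 37 members. At an unadjusted p under 0.05, 1 member was higher, the histone gene H2afx, which was not called (edgeR adjusted p = 0.0789). It was called higher under 4 of 15 alternatives: DESeq2, upper-quartile scaling, unscaled totals and the fit without WT_344. Under the other 11, limma-voom among them, it was not. In 28 members (75.7%) the highest KO library was below the lowest WT library, against 28.4% of tested genes of any level. The median log2 change was -0.33 over the members, 0.01 over all tested genes and -0.13 over those of at least 5 CPM. Among the called genes Fancm fell by 16.5% and Brca2 fell by 44.1%, the ends of the range, and 6 genes fell at least 1.5-fold: Fancd2, Brca2, Rad54l, Fancl, Atm and Atr. The standard error of the log2 change had a median of 0.0885 over the 37 genes, and in 30 of them the coefficient of variation was smaller among KO than among WT libraries. That count was not made over all tested genes, so it does not set these genes apart.

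**Figure D1:**
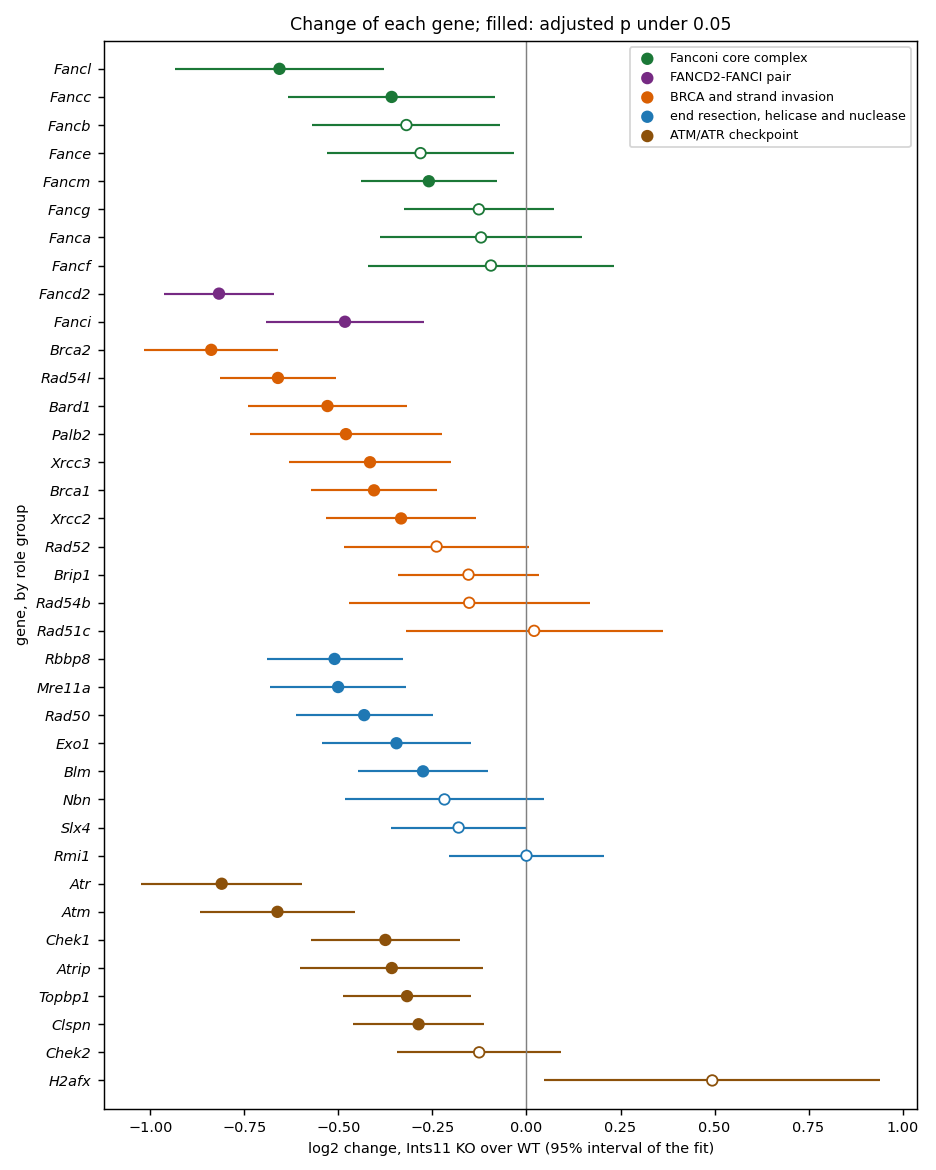
Log2 change (KO over WT) of each of the 37 genes with the 95% interval of the edgeR fit as a bar, grouped by role; filled points are genes with an adjusted p under 0.05. The filled points, 23 in number, all lie left of 0, and H2afx lies farthest to the right at 0.49.

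The deepest drop of the ligase's substrate pair was in Fancd2 (chr6:113531682-113597017, GRCm38, plus strand). It had 58.1, 57.6 and 57.4 CPM in KO, against 102, 103 and 99.6 CPM in WT. The groups were far apart and narrow, with means of 57.7 ± 0.391 CPM in KO and 101.7 ± 1.92 CPM in WT (SD, n = 3 each). Its log2 change was -0.82 ± 0.062 (adjusted p = 0.00110), a drop of 43.3%. Its partner Fanci (chr7:79391929-79450264, plus strand) had 43.5, 41.9 and 40.4 CPM in KO, against 64.9, 54.9 and 56.03 CPM in WT. The groups did not overlap, with WT_341 highest, and Fanci fell by 28.4% (log2 change -0.48 ± 0.090, adjusted p = 0.00879). The call of Fanci was lost without KO_345. The Fancd2 to Fanci ratio of CPM was 1.38 ± 0.0432 in KO and 1.75 ± 0.157 in WT (SD, n = 3 each).

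Of the 8 core complex genes, 3 fell, 0 rose and 5 were not called, with a median log2 change of -0.27. That count is near the 29.7% of tested genes of at least 5 CPM that fell. Fancl, the subunit with ubiquitin ligase activity, changed most. It had 7.10, 6.97 and 7.70 CPM in KO, against 11.1, 12.6 and 10.6 CPM in WT, with no overlap, and fell by 36.6% (log2 change -0.66 ± 0.12, adjusted p = 0.00814). Fancm, the DNA translocase that recruits the complex to DNA, had 67.5, 69.5 and 64.3 CPM in KO, against 81.04, 85.2 and 74.8 CPM in WT. Its groups did not overlap (log2 change -0.26 ± 0.077, adjusted p = 0.0360). Fancc, of the module that binds the substrate, had 14.5, 16.8 and 18.2 CPM in KO, against 20.9, 22.9 and 19.6 CPM in WT. The highest KO library, KO_345, lay close below WT_344, and the log2 change was -0.36 ± 0.12 (adjusted p = 0.0488), close to the threshold.

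Just beyond the threshold were Fancb, which works beside FANCL in the catalytic module, and Fance, of the module with FANCC. Fancb had 15.2, 13.8 and 12.6 CPM in KO, against 18.1, 17.4 and 16.4 CPM in WT (log2 change -0.32 ± 0.11, adjusted p = 0.0517). Fance had 10.9, 11.7 and 11.6 CPM in KO, against 12.5, 14.5 and 14.6 CPM in WT (log2 change -0.28 ± 0.11, adjusted p = 0.0737). In both, every KO library lay below every WT library. The remaining subunits overlapped between genotypes. The scaffold genes Fanca and Fancg had log2 changes of -0.12 (95% interval -0.39 to 0.15) and -0.13, and Fancf, a single-exon gene that acts as an adaptor in the complex, had -0.09, with 5.52 to 6.90 CPM in KO and 6.34 to 7.18 CPM in WT.

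**Figure D2:**
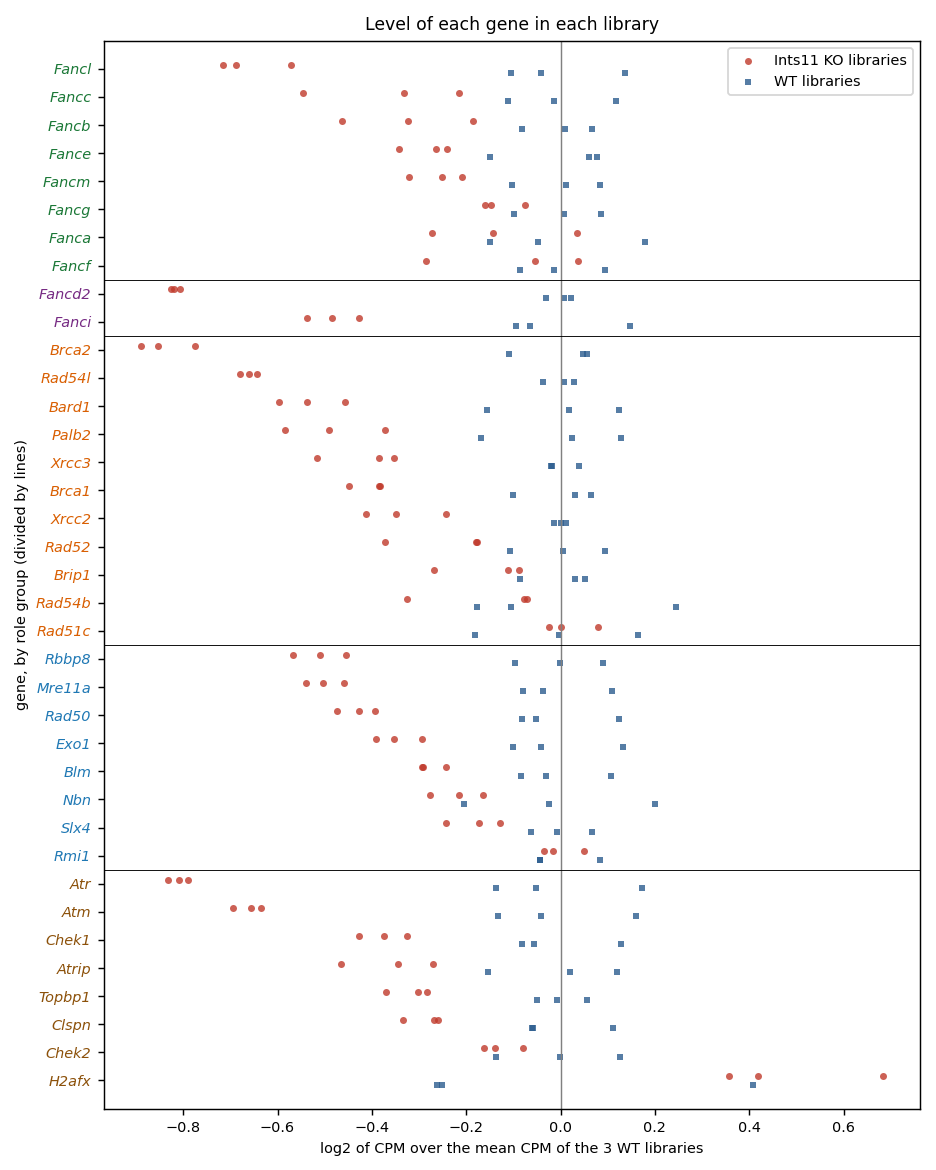
Level of each gene in each of the 6 libraries as log2 of its CPM over the mean CPM of the 3 WT libraries, with KO as circles above WT as squares and genes grouped by role. KO and WT points separate for Fancd2, Brca2, Rad54l, Atm and Atr, and overlap for Rad51c, Rmi1, Nbn, Chek2 and H2afx.

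Among the 11 genes of the BRCA proteins and strand invasion, 7 fell, 0 rose and 4 were not called, with a median log2 change of -0.41. The share of tested genes of at least 5 CPM that fell was 29.7%. Brca2 (chr5:150522630-150570329, plus strand), whose protein acts at the start of strand invasion, had 77.9, 82.3 and 76.01 CPM in KO, against 146, 145.5 and 130.5 CPM in WT. The highest KO library stood far below the lowest WT library, and the log2 change of -0.84 ± 0.076 (adjusted p = 0.00160) was the largest drop among the 37. Rad54l (chr4:116094264-116123690, minus strand), a motor protein of strand invasion, had 41.4, 41.9 and 42.4 CPM in KO, against 67.6, 64.5 and 66.6 CPM in WT. Replicates varied little in either genotype, and Rad54l fell by 36.7% (log2 change -0.66 ± 0.066, adjusted p = 0.00223). Its relative Rad54b had 26.5, 26.4 and 22.2 CPM in KO, against 33.0, 24.7 and 25.9 CPM in WT, with overlap (log2 change -0.15 ± 0.14, adjusted p = 0.406).

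The genes of the BRCA1-BARD1 ubiquitin ligase both fell. Brca1 (chr11:101488764-101551955, minus strand) had 124.8, 125 and 119 CPM in KO, against 167, 170.4 and 152 CPM in WT (log2 change -0.41 ± 0.071, adjusted p = 0.00750). Bard1 (chr1:71027498-71103146, minus strand) had 60.002, 57.6 and 63.4 CPM in KO, against 94.8, 78.2 and 88.1 CPM in WT (log2 change -0.53 ± 0.091, adjusted p = 0.00697). Neither gene overlapped between genotypes. Xrcc3, whose protein pairs with that of Rad51c, had 12.5, 13.95 and 13.6 CPM in KO, against 17.6, 17.6 and 18.3 CPM in WT (log2 change -0.42 ± 0.092, adjusted p = 0.0147). The bridge gene Palb2 (log2 change -0.48, adjusted p = 0.0156) and the strand invasion gene Xrcc2 (-0.33, adjusted p = 0.0228) also fell. Not called were Brip1, the helicase that binds BRCA1 (-0.15), Rad52, an annealing protein (-0.24, with no overlap between genotypes: 12.6 to 14.5 CPM in KO and 15.2 to 17.5 CPM in WT), and Rad51c.

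Rad51c (chr11:87376645-87404954, minus strand) was the lowest of the 37 and stood level. It had 5.39, 5.11 and 5.02 CPM in KO, against 5.72, 4.499 and 5.09 CPM in WT (log2 change 0.02 ± 0.15, 95% interval -0.32 to 0.36, adjusted p = 0.925). The KO libraries lay within the WT range. Its start lies 111 bases from that of Tex14 on the opposite strand, a germ cell gene with 13.7 CPM in KO and 0.820 CPM in WT (log2 change 4.06 ± 0.25, adjusted p = 0.00064).

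Of the 8 resection, helicase and nuclease genes, 5 fell, 0 rose and 3 were not called, with a median log2 change of -0.31. Beside this count, 29.7% of tested genes of at least 5 CPM fell. Mre11a (chr9:14784654-14837123, plus strand), the nuclease of the MRE11-RAD50-NBN complex, had 58.1, 56.3 and 54.9 CPM in KO, against 77.9, 86.1 and 75.6 CPM in WT. The groups did not overlap, and Mre11a fell by 29.3% (log2 change -0.50 ± 0.077, adjusted p = 0.00525). Rad50, the ATPase that tethers the broken ends, had 98.5, 100.8 and 95.3 CPM in KO, against 125, 144 and 128 CPM in WT, again with no overlap (log2 change -0.43 ± 0.078, adjusted p = 0.00814). Nbn, the subunit that brings ATM to the complex, had 41.6, 40.2 and 38.5 CPM in KO, against 40.5, 53.6 and 45.8 CPM in WT. WT_341 lay inside the KO range, and Nbn was not called (log2 change -0.22 ± 0.11, adjusted p = 0.163), but it was called lower without WT_341.

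Rbbp8, which encodes the resection factor CtIP, had 58.9, 54.5 and 56.7 CPM in KO, against 85.9, 75.5 and 80.7 CPM in WT (log2 change -0.51 ± 0.077, adjusted p = 0.00515). Exo1, the exonuclease that extends resection, had 50.7, 54.3 and 52.1 CPM in KO, against 61.98, 72.9 and 64.6 CPM in WT (log2 change -0.35 ± 0.085, adjusted p = 0.0197). Blm, the helicase that dissolves joint molecules, had 90.6, 93.8 and 90.7 CPM in KO, against 119.5, 109 and 104.7 CPM in WT (log2 change -0.27 ± 0.074, adjusted p = 0.0266). None of these genes overlapped between genotypes. Slx4, the scaffold for crosslink nucleases, also kept every KO library below every WT library, at 41.9 to 45.4 CPM in KO and 47.5 to 51.96 CPM in WT, but was not called (log2 change -0.18, adjusted p = 0.102). Rmi1, the partner of BLM, had 19.02, 18.2 and 17.9 CPM in KO, against 19.5, 17.8 and 17.8 CPM in WT. The KO libraries lay inside the WT range, with a 95% interval of -0.21 to 0.21 on the log2 scale.

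In the checkpoint group, 6 of 8 genes fell, 0 rose and 2 were not called, with a median log2 change of -0.34. Tested genes of at least 5 CPM fell in 29.7% of cases. Atr (chr9:95857597-95951781, plus strand), the kinase of stalled forks, had 70.2, 71.3 and 72.3 CPM in KO, against 114, 141 and 120.5 CPM in WT. The KO libraries were close together and all below WT, and Atr fell by 42.97% (log2 change -0.81 ± 0.092, adjusted p = 0.00296). Atm (chr9:53439149-53536740, minus strand), the kinase of broken ends, had 97.8, 100.4 and 102 CPM in KO, against 144, 177 and 154 CPM in WT. It too was separate in every library and fell by 36.8% (log2 change -0.66 ± 0.088, adjusted p = 0.00380). The effector kinase of ATR, Chek1, had 44.97, 43.4 and 41.9 CPM in KO, against 53.2, 61.6 and 54.2 CPM in WT (log2 change -0.38 ± 0.085, adjusted p = 0.0154). The effector kinase of ATM, Chek2, had 36.7, 35.2 and 34.6 CPM in KO, against 42.3, 38.7 and 35.2 CPM in WT. WT_344 lay within the KO range, and Chek2 was not called (log2 change -0.13 ± 0.093, adjusted p = 0.313).

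The genes for activators and adaptors of ATR also fell. Topbp1, which activates ATR and was the most highly counted of the 37, had 375, 380.2 and 358 CPM in KO, against 447, 480.5 and 459.8 CPM in WT (log2 change -0.32 ± 0.073, adjusted p = 0.0163). Clspn, the mediator that presents CHK1 to ATR, had 121, 121.5 and 115 CPM in KO, against 157, 139.7 and 139.5 CPM in WT (log2 change -0.29 ± 0.075, adjusted p = 0.0238). Neither overlapped between genotypes. Atrip, which brings ATR to coated single strands, had a log2 change of -0.36 ± 0.10 (adjusted p = 0.0334), and the Atr to Atrip ratio was 2.84 ± 0.167 in KO and 3.88 ± 0.169 in WT (SD, n = 3 each). H2afx (chr9:44334694-44336077, plus strand), a single-exon gene for the histone variant that ATM and ATR phosphorylate at breaks, had 162, 194 and 155 CPM in KO, against 101, 102 and 160.4 CPM in WT. WT_344 lay inside the KO range while the other two WT libraries lay below it, and the gene was not called (log2 change 0.49 ± 0.19, 95% interval 0.05 to 0.94, adjusted p = 0.0789). Without WT_344 it was called higher.

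Proteins that work together can be set against each other within a library, where the scaling of libraries cancels. In 8 such partner pairs, chosen after the values were seen, the ratio of CPM did not overlap between genotypes in 7, with KO below WT in 6. The smallest exact two-sided permutation p for 3 against 3 libraries is 0.1, which is 0.1143 adjusted over the 8 pairs for each of those 7, so no pair could pass. The log2 difference of the ratio, KO minus WT, was -0.45 for Atr over Atrip, -0.36 for Brca2 over Palb2, -0.34 for Fancd2 over Fanci, -0.29 for Mre11a over Nbn, -0.27 for Blm over Rmi1 and -0.22 for Rad50 over Nbn. In these 6 pairs the gene with the deeper drop is on top. The ratio of Rad51c to Xrcc3 was higher in KO, at 0.389 ± 0.0382 against 0.287 ± 0.0351 in WT (SD, n = 3 each). That of Brca1 to Bard1 overlapped, at 2.05 ± 0.147 in KO and 1.89 ± 0.254 in WT (SD, n = 3 each).

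**Figure D3:**
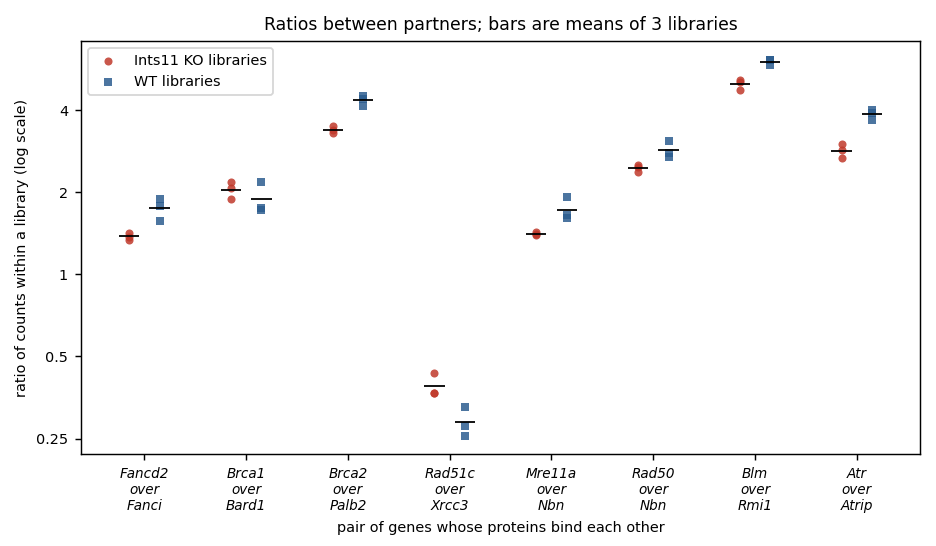
Ratio of CPM of partner genes in each library (log axis), KO circles left of WT squares, with a line at the mean of 3 libraries. The Atr to Atrip, Brca2 to Palb2 and Fancd2 to Fanci ratios are lower in every KO library, and the Brca1 to Bard1 ratio overlaps.

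Per kilobase of annotated exon, levels differed widely among the genes. The length is the union of all annotated exons of a gene, which can exceed that of any transcript. The values and their order depend on it. H2afx was highest at 123 CPM per kb in KO and 87.4 in WT, followed by Topbp1 at 33.1 in KO and 41.2 in WT, and Rad50 at 18.3 in KO and 24.6 in WT. The lowest were Rad51c at 1.18 in KO and 1.16 in WT, and Fancc at 1.97 in KO and 2.53 in WT. In KO cells Fancd2 and Fanci, whose proteins form a heterodimer, were level at 7.27 and 7.26 CPM per kb, against 12.8 and 10.1 in WT. The genes of the core complex lay between 1.97 and 8.78 CPM per kb in KO and between 2.53 and 9.59 in WT.

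The annotated span of the genes, from first to last base with introns, ran from 1.38 kb for H2afx to 212 kb for Fancc. Across the 37 genes, Spearman's rho between span and log2 change was -0.49, and across 14312 tested protein-coding genes it was 0.02. These are descriptions across genes of the same 6 libraries, and genes are not independent replicates. Of the 10 members of at least 60 kb, 9 fell, with a median log2 change of -0.52, and the exception was Brip1. Of all tested protein-coding genes of that span 17.1% fell (564 of 3299), with a median of 0.05. Members of 20 to 60 kb fell in 10 of 17 cases (median -0.29), against 24.9% of protein-coding genes of that span (1132 of 4551), and those under 20 kb in 4 of 10 (median -0.30), against 21.5% (1387 of 6462). The span classes were chosen after the values were seen. Their shares count tested protein-coding genes of any level, while every member has a mean of at least 5 CPM. Across the members rho was -0.41 with exon length and -0.28 with mean CPM; across protein-coding genes these were -0.03 and -0.47.

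**Figure D4:**
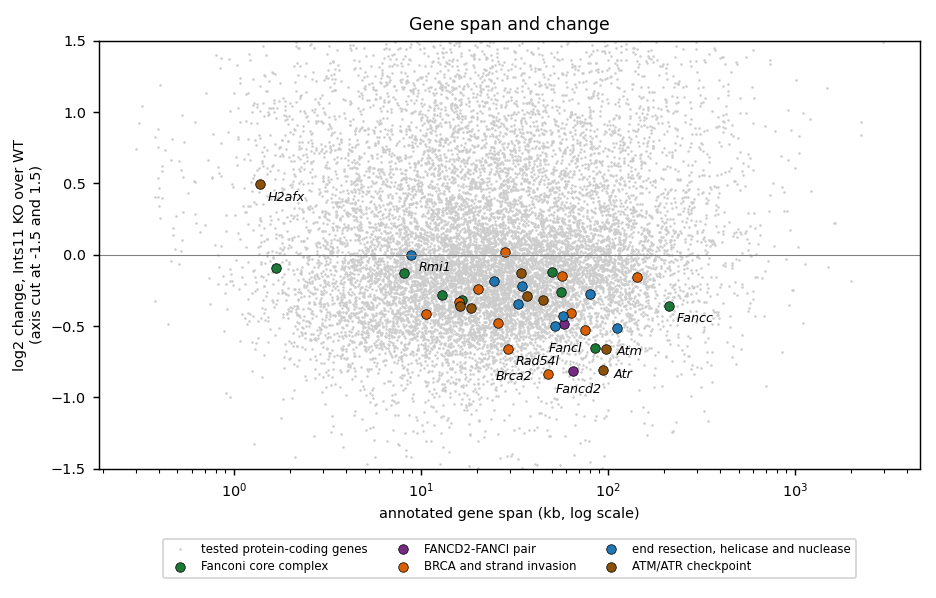
Log2 change (KO over WT) against annotated gene span (kb, log axis) for the 37 genes, coloured by role, over 14312 tested protein-coding genes in grey, 832 of which lie beyond the limits of the vertical axis. Most members lie below 0, and Fancd2, Atr, Atm and Fancl lie low among the members of the longest spans.

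Many repair genes are transcribed most around the start of DNA replication, and E2F factors act at promoters of that kind. RefSeq promoter windows (GRCm38.p6, 250 bases before to 50 after the start) matched 29 of the 37 genes. The letters TTTCCCGC, TTTGGCGC, TTTCGCGC and TTTGCCGC, searched on both strands, stood in 8 of 29 members (27.6%), against 531 of 12136 tested genes (4.4%) and 704 of all 27025 genes with a window (2.6%). They stood in 4 of 18 members that fell (22.2%) and in 4 of 11 not called (36.4%). The letters CCAAT, on either strand, stood in 19 of 29 members (65.5%) and in 42.3% of tested genes, and TTTGAA or TTCGAA, the letters of the CHR element of late cell cycle genes, in 2 of 29 members (6.9%) and 17.1% of tested genes. A match of letters is a description and not a binding site. The stretches below show the match in capitals, 5′ to 3′ on the strand of the gene, in genes that fell and in genes not called. Where the capitals end in AAA, the match is on the other strand.
Bard1, fell, chr1:71103138-71103217, minus strand: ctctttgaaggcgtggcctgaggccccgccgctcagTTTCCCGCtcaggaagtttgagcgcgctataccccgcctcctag
Brca2, fell, chr5:150522417-150522496, plus strand: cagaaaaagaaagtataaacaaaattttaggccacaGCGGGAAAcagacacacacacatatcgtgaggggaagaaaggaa
Topbp1, fell, chr9:103305162-103305241, plus strand: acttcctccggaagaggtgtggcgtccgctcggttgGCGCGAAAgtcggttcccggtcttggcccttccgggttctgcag
Fancg, not called, chr4:43010310-43010389, minus strand: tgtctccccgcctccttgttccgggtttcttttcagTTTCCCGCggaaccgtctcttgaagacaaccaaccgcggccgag
Chek2, not called, chr5:110839795-110839874, plus strand: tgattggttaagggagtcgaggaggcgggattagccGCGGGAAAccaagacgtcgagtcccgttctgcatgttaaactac
Rad51c, not called, chr11:87404935-87404995, minus strand: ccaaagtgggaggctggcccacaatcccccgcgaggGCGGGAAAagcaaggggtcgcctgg
The matches of Rmi1 and Clspn lie after the start, as does a further match of Rad51c, at another annotated start (TTTCGCGC, 12 bases in). Genes with the same letters, such as Brca2 (log2 change -0.84) and Chek2 (-0.13), differed in their change.

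Some members share their exons or start region with another gene, and the sources used here do not say whether reads were counted by strand. Of 13 tested neighbours with overlapping exons, 4 fell, 2 rose and 7 were not called. On the opposite strand these included Zfp276 at Fanca, which rose (log2 change 0.56, adjusted p = 0.0123), and Vrk2 at Fancl, which fell (-0.48, adjusted p = 0.0119). Hnrnpk at Rmi1, with 549 CPM in KO and 669.6 CPM in WT, fell (-0.29, adjusted p = 0.0495), as did 2010111I01Rik at Fancc (-0.68, adjusted p = 0.00234) and Ankrd49 at Mre11a (-0.49, adjusted p = 0.0218). Not called among them were Gas2 at Fancf (0.18), Fancd2os at Fancd2 (-0.54), Polg at Fanci (0.06), Klc1 at Xrcc3 (-0.06) and Lrrc41 at Rad54l (-0.04), and on the same strand Trex1 at Atrip (0.08) and Fsbp at Rad54b (-0.54). The other gene that rose was 1700065D16Rik at Atr (1.21, adjusted p = 0.0394), with 0.246 CPM in KO and 0.106 CPM in WT. Reads of such pairs could not be assigned with certainty. Of 11 tested genes that start within 2000 bases on the opposite strand with separate exons, 1 fell, 1 rose and 9 were not called. Fkbp3 beside Fancm fell (1596 bases, log2 change -0.89, adjusted p = 0.00481), and the one that rose was Tex14 beside Rad51c. Emc3 beside Fancd2 (30 bases, log2 change -0.20), Nbr1 beside Brca1 (194 bases, -0.19) and Npat beside Atm (307 bases, -0.16) were among the 9. Annotated small nuclear RNA genes lie inside Brca2, Exo1 and Atr. The nearest to Rad51c, Rnu1a1, lies 17913 bases away, within the annotated span of Tex14. Whether such genes bear on any change was not tested.

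The other genes of the pathway were described from 6 lists, of which 77 of 78 genes had a row. Of these 77, all tested, 34 fell (44.2%), 2 rose and 41 were not called, with a median log2 change of -0.24. The counts below stand beside 19.9% of all tested genes, and 29.7% of those of at least 5 CPM, that fell. Among 21 clamp, fork and mediator genes of the checkpoint 11 fell, led by Timeless of the fork protection complex, with 84.9 CPM in KO and 141 CPM in WT (log2 change -0.73 ± 0.066, adjusted p = 0.00155), and Rpa1, which coats single strands (-0.49, adjusted p = 0.00469). Among 18 further strand invasion genes and cofactors 9 fell, with Fignl1 (-0.50, adjusted p = 0.00459) and Bre, a subunit of the BRCA1-A complex (-0.48, adjusted p = 0.00536), first by adjusted p. Of 12 Fanconi partners 4 fell, a share near the 29.7% of tested genes of at least 5 CPM, among them Stra13, the histone-fold partner of FANCM (-0.75 ± 0.087, adjusted p = 0.00310), and Wdr48, the cofactor of the enzyme that removes ubiquitin from FANCD2 (-0.33, adjusted p = 0.0121).

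The other lists are short, and their counts stand beside the 29.7% of tested genes of at least 5 CPM that fell. The translesion count, 2 of 7, was near that share. Of 9 genes of non-homologous end joining, which joins ends without a template, 4 fell, with Prkdc at 95.4 CPM in KO and 157 CPM in WT (log2 change -0.72 ± 0.063, adjusted p = 0.00144) and Xrcc6, a Ku subunit (-0.58, adjusted p = 0.00332). Of 10 further helicases and nucleases 4 fell, with Dna2 (-0.38, adjusted p = 0.00761) and Recql (-0.37, adjusted p = 0.0118) first, and Eme2, a partner of the MUS81 nuclease, rose (0.36 ± 0.10, adjusted p = 0.0338). Of 7 translesion genes Rad18, the ligase that marks PCNA (-0.61, adjusted p = 0.00306), and the polymerase gene Poli (-0.70, adjusted p = 0.00623) fell. The polymerase gene Polk rose, with 31.7 ± 2.28 CPM in KO and 20.3 ± 1.73 CPM in WT (SD, n = 3 each; log2 change 0.64 ± 0.10, adjusted p = 0.00592).

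Genes of DNA replication and the entry into S phase moved beside the members. Of 35 such genes 27 fell (77.1%) and 0 rose by edgeR's test. Of all tested genes 19.9% fell and 16.0% rose, and of those of at least 5 CPM 29.7% fell and 10.7% rose. The members' summed level was 2208, 2256.5 and 2131 CPM in KO, against 2809, 2859 and 2771 CPM in WT. The 2 lists share no gene. Set against the summed level of the replication genes, the members' sum was 40.8%, 41.3% and 41.1% in KO, against 41.8%, 38.3% and 39.3% in WT. The ratios of the sums overlapped between genotypes, with KO libraries inside the WT range.

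Calls were set against other scalings, single libraries and the neutrophil transcripts that moved with genotype. Fancd2, Brca1, Bard1, Brca2, Rad54l, Mre11a, Rbbp8, Atm and Atr were called lower under all 15 alternatives. With upper-quartile scaling 13 members fell, against 12.3% of all tested genes. This share and the one given below with the covariate count tested genes of any level, while every member has a mean of at least 5 CPM. Fancc, Fancm, Palb2, Xrcc2, Xrcc3, Exo1, Blm, Atrip, Topbp1 and Clspn lost their calls with upper-quartile scaling. Under that scaling the median log2 change was -0.20 for the members and 0.15 over all tested genes. The members' median minus that of all tested genes was -0.345 under TMM and -0.345 under upper-quartile scaling. Library factors shift the log2 changes of all genes nearly alike, so this difference could hardly move. The mean log2 CPM of the mature neutrophil markers was 9.56, 9.23 and 9.19 in KO, against 9.05, 7.39 and 8.20 in WT. Every KO value lay above every WT value, so the 6 libraries cannot separate this mean from genotype. With that mean as a covariate, 12 members fell and 0 rose, against 6.82% of tested genes that fell, and the members' median log2 change was -0.33. Fancl, Rad50, Chek1, Palb2, Exo1, Xrcc2, Xrcc3, Topbp1, Fancm, Atrip and Fancc lost their calls under it, in a fit with fewer degrees of freedom. The log2 change with the covariate was -0.55 for Palb2, -0.53 for Fancl, -0.39 for Xrcc3, -0.33 for Xrcc2, -0.30 for Rad50, -0.26 for Topbp1, -0.25 for Chek1 and -0.22 for Fancm. It was -0.15 for Atrip, -0.18 for Exo1 and -0.23 for Fancc, each over 1.5 times smaller than the change without the covariate. The number of members that fell was 13 when KO_339 was left out, 14 for KO_340, 11 for KO_345, 25 for WT_341, 20 for WT_343 and 17 for WT_344. Fancc, Fancm, Xrcc2, Xrcc3, Blm, Atrip, Topbp1 and Clspn lost their calls without any one of the KO libraries. Palb2 and Exo1 lost theirs without KO_339 or KO_345, Chek1 without KO_340 or KO_345, and Fanci without KO_345. Without WT_343 the calls of Fancc, Fancm and Atrip were lost, and without WT_344 those of Fancc, Xrcc2, Xrcc3, Exo1, Atrip and Topbp1. Without WT_341, Fance and Nbn were called lower in addition.

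**Figure D5:**
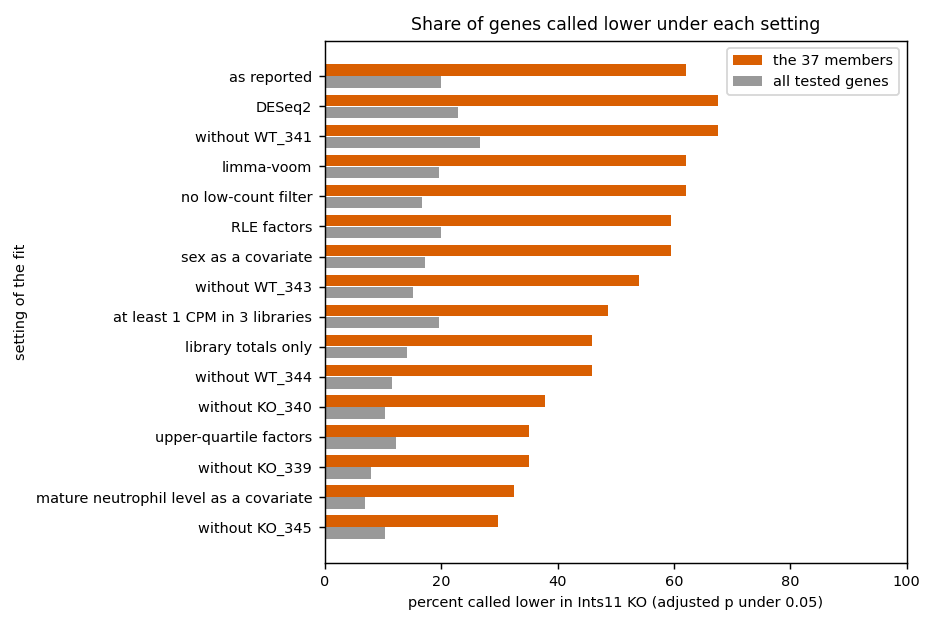
Percent of the 37 genes (orange bars) and of all tested genes (grey bars) called lower in KO as reported and under each of the 15 alternatives. The orange bar is the longer one in every setting shown, at 62.2% against 19.9% as reported. Grey bars count tested genes of any level, while every member has a mean of at least 5 CPM. Of tested genes with such a mean, 29.7% fell as reported.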

How the data were processed

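The authors deposited a table of raw counts, with a row for each gene symbol and a column for each library, not normalized. Per the labels' protocols, total RNA of single mice went into strand-specific TruSeq messenger RNA libraries. FastQC, Trimmomatic, STAR, HTSeq and the build mm10 are named, without versions, per the submitters' processing notes. How reads with several positions were treated is not stated there.

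Counts were tested with edgeR 4.0.16 (R 4.3.3): filterByExpr (minimum count 10, minimum total count 15), TMM, robust glmQLFit, glmQLFTest for genotype, and Benjamini-Hochberg adjustment over 15742 genes with a threshold of 0.05. DESeq2 1.42.0 and limma 3.58.1 served as alternatives. The gene test was checked on counts simulated from its own fitted dispersions and scaling. That check cannot show a misfit of the model to these libraries. Positions come from GENCODE M21 on GRCm38, matched by symbol (22739 directly, 934 through RefSeq synonyms, 389 unmatched); promoters are from RefSeq, GRCm38.p6. By counts of Xist and of Y-linked genes, KO_339, KO_340 and WT_341 were called male and the others female. The labels name no batch.

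The members and lists were chosen with earlier results of these data known. Values are given in full for up to 5 members of each role group with the smallest adjusted p, and for others by level or log2 change; for each pathway list up to 2 genes that fell and 2 that rose with the smallest adjusted p are named, and neighbours where exons overlap or starts lie close. Rad51c, H2afx, Nbn, Chek2, Rmi1 and Rad54b are given in full by choice after their values were seen. One gene of the pathway lists is not reported here. Protein sequences were not analysed here.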

Additional observations from a re-analysis of the deposited data

How the results depend on the processing

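Of the 37 members 23 were called lower; upper-quartile scaling gave 13, the neutrophil covariate 12 and the omission of single libraries 11 to 25. Members called higher numbered 1 with upper-quartile scaling, unscaled totals and DESeq2, and 0 to 1 without single libraries. The median log2 change of the members was -0.20 with upper-quartile scaling and -0.23 with unscaled totals. For the other pathway genes, 34 fell; 21 fell with upper-quartile scaling, 16 with the covariate and 14 to 36 without single libraries, while 4 rose with upper-quartile scaling, 4 with totals, 1 with sex as a covariate, 1 with the neutrophil covariate and 1 to 5 without single libraries. All called genes numbered 5659, 1731 with the neutrophil covariate and 2302 to 7879 without single libraries. Of all calls, 44.5% were higher, against 64.2% with upper-quartile scaling and 58.8% with totals. The sign turned only in members that were not called: with upper-quartile scaling for Fanca (0.010), Fancf (0.039), Fancg (0.0066), Rmi1 (0.13) and Chek2 (0.0072), with totals for Fancf (0.0037) and Rmi1 (0.099), and with the neutrophil covariate for Rad51c (-0.21) and Nbn (0.035). Sex as a covariate gave Rad51c -0.028. Rmi1 was 0.0072 with RLE, 0.0077 with DESeq2, 0.0045 with limma-voom and 0.072 with a 1 CPM filter. Without single libraries, Rmi1 ran from -0.028 to 0.045, Fancf from -0.14 to 0.020 and Rad51c from -0.068 to 0.099. The median log2 change over all tested genes was 0.01 as reported, 0.15 with upper-quartile scaling and 0.11 with unscaled totals. Such scalings shift all genes nearly alike. The cause of the turns in other settings was not tested. Beyond the calls named in the report, Fancc was lost with RLE, Fancc and Atrip with sex as a covariate, Fancc, Fancm, Blm, Atrip and Clspn with unscaled totals and with the 1 CPM filter, and Xrcc2 with unscaled totals; Fancb was gained with DESeq2 and with sex, and Fance with DESeq2. Over 15 alternatives, 0 of 23 called members turned. No paired analysis was run, because the sample labels do not say which KO and WT mice shared a litter. The planned count of kinase motifs in the proteins was not run.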
